A study of Rattus norvegicus with 10 samples.

Results

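Arc, the 3 Nr4a nuclear receptors, Npas4, Homer1, Nptx2, Ptgs2, Rgs2 and Inhba are genes whose transcripts are induced by neuronal activity. These 10 symbols were taken by name from the deposited tables, which list 17168 gene symbols, and all 10 were among the 11791 genes that passed the filter on low counts. RNA was taken from left hippocampi of 10 female rats of the TgF344-AD strain at 11 months of age, with 5 animals on ordinary rodent chow (untreated) and 5 on chow containing RG2833 at 750 mg per kg for 6 months from the age of 5 months. RG2833 is an inhibitor of the histone deacetylases HDAC1 and HDAC3. Both groups carry the same transgenes of this strain, which include mutant human APP driven by the mouse prion promoter, and no wild-type animals were analysed here. All animals were anaesthetized with ketamine and xylazine and perfused before the tissue was frozen, and a blue food dye was used to tell the chows apart. Each sample is 1 animal, and no pooling of animals is stated in the labels.

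Activity genes of this kind respond to calcium entry through synaptic receptors and voltage-gated channels. Kinases then act on transcription factors already present, among them CREB and SRF, so that the first transcripts need no new protein. Early products include transcription factors such as NPAS4 and the NR4A receptors, and Arc, which acts directly at synapses. Later effectors change receptors, signalling and secreted factors at the synapse. In the hippocampus several of these genes, Arc among them, are used as markers of recent activity, and some are required for lasting memory. The genes are described here as 5 early members (Arc, Nr4a1, Nr4a2, Nr4a3, Npas4) and 5 delayed members (Homer1, Nptx2, Ptgs2, Rgs2, Inhba). The division comes from general knowledge and is not sharp, since Ptgs2, Rgs2 and the short form of Homer1 are often listed as immediate-early transcripts too.

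Total estimated counts per animal were between 8764266 and 11311673. Of the marker genes listed for the hippocampus, some were well detected and some were not. Slc17a7 (the vesicular glutamate transporter of hippocampal pyramidal and granule cells) averaged 1626 CPM in untreated animals, the dentate granule cell markers Prox1 and C1ql2 averaged 32.8 and 87.1 CPM, and Wfs1 (CA1 pyramidal cells) ran from 63.9 to 588 CPM. The dentate marker Tdo2 had no count in any library, and the dentate marker Lct and the CA3 and CA2 marker Iyd averaged 0.101 and 0.105 CPM in untreated animals. CPM are counts scaled to a common library size with TMM factors. Ribosomal RNA loci took 2.70 to 5.36% of the counts in untreated animals and 1.13 to 1.96% in RG2833 animals, without overlap, so this share and the treatment cannot be told apart. In addition, 2 untreated libraries stood apart: replicate 1 held the choroid plexus transcript Ttr at 2380.5 CPM, against 3.80 to 38.4 CPM in the other 9, and replicate 4 had a first principal component score of 11.5, inside the RG2833 range of 9.18 to 25.3.

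Arc, Nr4a1 and Nr4a2, all early genes, were higher in RG2833 animals after adjustment over all tested genes, and no delayed gene was. With the excitatory neuron markers, the ribosomal RNA share or a surrogate variable in the fit, 0 members were called. In those fits 0.0424, 0.017 and 0.0424% of all tested genes were called, 0 of them higher. With 1 animal left out, 1 to 5 members were called, while 0.826 to 13.1% of all genes were. Nptx2 and Ptgs2 were among the 5 called without untreated replicate 4. Arc had a 2.07-fold higher level, Nr4a1 a 1.86-fold higher level and Nr4a2 a 1.45-fold higher level. The calls thus covered 3 of 10 members, all upward, while of all tested genes 2.41% were called higher, 2.67% lower and 5.08% in either direction (edgeR quasi-likelihood test, Benjamini-Hochberg adjusted p under 0.05). Values above those of every untreated animal were found in all 5 RG2833 animals for 2 members, Arc and Nr4a2, against 3.8% of all tested genes (7.27% did not overlap in either direction). At an unadjusted p under 0.05, 6 of 10 members were higher, against 11.8% of all tested genes (24.5% in either direction). The median log2 fold change was 0.64 over the 10 members and 0.00 over all tested genes. Because the members were chosen with results of these data known, these counts are a description.

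**Figure D1:**
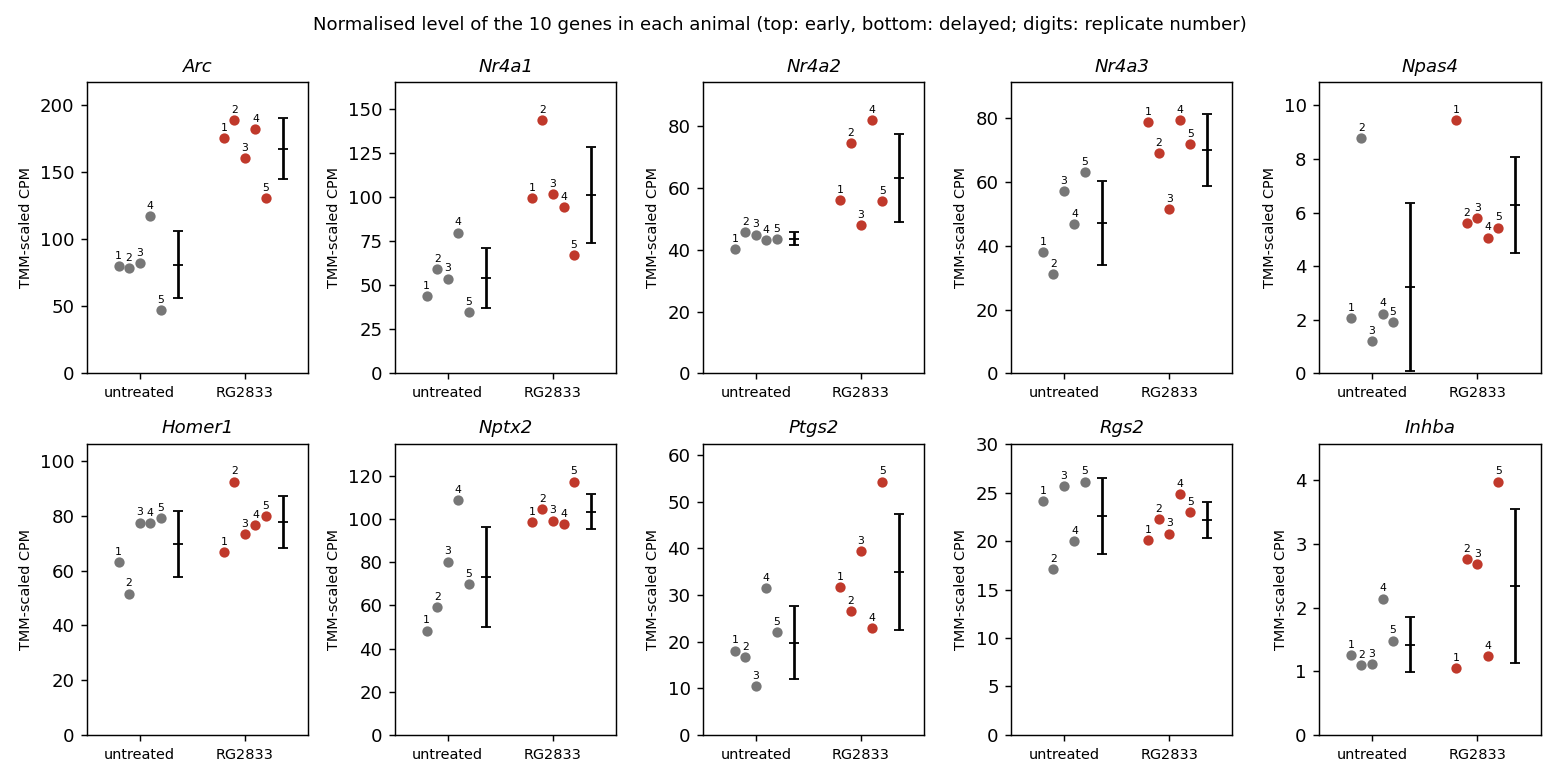
Normalised level (TMM-scaled CPM, y axis) of each gene in the 5 untreated (grey) and 5 RG2833 (red) animals, numbered by replicate, with the mean and SD as black bars. All RG2833 points lie above all untreated points for Arc (130.7 CPM or more against 117 CPM or less) and for Nr4a2, and the groups overlap for the other 8 genes.

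Arc encodes a postsynaptic protein that promotes the removal of AMPA receptors from the membrane. In untreated animals 1 to 5 its level was 79.6, 78.6, 82.3, 117 and 47.1 CPM, and in RG2833 animals 1 to 5 it was 175, 188, 160, 182 and 130.7 CPM. The lowest treated animal, replicate 5, was still above the highest untreated animal, replicate 4. The mean rose from 80.9 ± 24.7 to 167 ± 22.9 CPM (SD, n = 5 each), which is 1.05 ± 0.19 (SE) in log2 units and passed the edgeR test (adjusted p = 0.0144). That difference exceeded those of 99.8% of tested genes. With any single animal removed Arc still passed, in 10 of 10 fits, at 0.90 to 1.22 log2 units (edgeR adjusted p at most 0.0449).

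Nr4a1, Nr4a2 and Nr4a3 encode the orphan nuclear receptors NUR77, NURR1 and NOR1, transcription factors whose activity is set mainly by how much of them is made. Nr4a1 was 43.6, 58.9, 53.7, 79.8 and 34.9 CPM in untreated animals 1 to 5 and 99.5, 143, 102, 94.2 and 67.1 CPM in RG2833 animals 1 to 5. Here the groups overlapped through 1 animal of each, untreated replicate 4 and RG2833 replicate 5, which were also the highest untreated and the lowest treated animals for Arc. Nr4a1 rose by 0.90 ± 0.22 log2 units (SE), with an edgeR adjusted p of 0.0394.

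Nr4a2 was 40.3, 45.7, 44.8, 43.0 and 43.4 CPM in untreated animals and 55.9, 74.4, 47.9, 81.7 and 55.6 CPM in RG2833 animals. The untreated animals lay close together (coefficient of variation 4.83%), whereas the treated animals spread more widely (22.6%), with replicates 2 and 4 highest. Nr4a2 rose by 0.54 ± 0.13 log2 units (SE), with an edgeR adjusted p of 0.0391. Nr4a3 was 38.1, 31.1, 57.1, 46.6 and 63.1 CPM in untreated animals and 78.6, 69.0, 51.4, 79.2 and 71.8 CPM in RG2833 animals. Of the treated animals, 4 lay above all untreated ones and replicate 3 lay inside their range. Its difference of 0.57 ± 0.18 log2 units (SE) did not pass (edgeR adjusted p = 0.0798).

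The calls of both Nr4a genes were less stable than that of Arc when animals were left out. Nr4a1 passed in 2 of the 10 fits, those without untreated replicate 4 or 5 (edgeR adjusted p from 0.00591 to 0.0932 over the 10), and Nr4a2 in 3, those without untreated replicate 4 or 5 or RG2833 replicate 3 (0.0300 to 0.0971). Their log2 fold changes stayed between 0.74 and 1.08 and between 0.42 and 0.62. Nr4a3 passed in 1 fit, in which untreated replicate 5 was absent (0.69 log2 units, edgeR adjusted p = 0.0346). Estimated counts of Nr4a2 held decimals in 9 of 10 libraries and those of Nr4a3 in 4, as happens when reads are divided between genes or loci.

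The promoters of 2 Nr4a genes that rose and of 2 delayed genes whose 95% intervals included 0, Homer1 and Rgs2, are shown for comparison as the 250 bases before the RefSeq gene start (GRCr8), 5′ to 3′. Capitals mark the half-site of the cAMP response element bound by CREB, TGACG on either strand (CGTCA where it lies on the opposite strand). The 4 windows are Nr4a1 (chr7:134259888-134260137, plus strand), Nr4a2 (chr3:62104888-62105137, minus strand), Homer1 (chr2:26278762-26279011, plus strand) and Rgs2 (chr13:58352667-58352916, minus strand).
Nr4a1: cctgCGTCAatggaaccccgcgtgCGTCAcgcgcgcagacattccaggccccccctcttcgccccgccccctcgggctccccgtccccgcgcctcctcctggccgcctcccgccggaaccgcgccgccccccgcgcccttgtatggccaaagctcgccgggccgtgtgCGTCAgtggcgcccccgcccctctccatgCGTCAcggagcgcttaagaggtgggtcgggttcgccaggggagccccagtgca
Nr4a2: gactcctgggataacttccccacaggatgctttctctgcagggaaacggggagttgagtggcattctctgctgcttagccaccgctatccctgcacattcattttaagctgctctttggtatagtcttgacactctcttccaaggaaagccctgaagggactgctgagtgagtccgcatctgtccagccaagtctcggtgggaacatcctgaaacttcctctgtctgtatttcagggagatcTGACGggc
Homer1: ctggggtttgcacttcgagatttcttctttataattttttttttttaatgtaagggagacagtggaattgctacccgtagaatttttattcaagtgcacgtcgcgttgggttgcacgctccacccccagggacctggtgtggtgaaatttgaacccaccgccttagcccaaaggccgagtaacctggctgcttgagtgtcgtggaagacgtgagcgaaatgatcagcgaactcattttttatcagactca
Rgs2: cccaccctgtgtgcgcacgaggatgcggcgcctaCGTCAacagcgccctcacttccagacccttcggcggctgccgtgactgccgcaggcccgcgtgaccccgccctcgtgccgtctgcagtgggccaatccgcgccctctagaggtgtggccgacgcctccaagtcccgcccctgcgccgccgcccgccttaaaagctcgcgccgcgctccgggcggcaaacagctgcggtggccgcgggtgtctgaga

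The Nr4a1 window held 4 half-sites, beginning 246, 226, 82 and 53 bases before the gene start. Nr4a2 held 1, at 8 bases, and Rgs2, whose level did not differ detectably, held 1, at 216 bases. Nptx2 also held 1, and Homer1, Npas4, Ptgs2 and Inhba held 0. RefSeq sequences were matched for 8 of the 10 genes, all but Arc and Nr4a3. At least 1 half-site was found in 18.2% of the 33469 promoter windows in the RefSeq table, and 4 or more in 0.173% (58 windows). These shares are not matched for base composition: G and C made up 74.8% of the Nr4a1 window, against a median of 51.2% over all windows. The 8-base cAMP response element TGACGTCA, which contains the half-site, was in 0 of the 8 windows (1.59% of all windows), the serum response element (CArG box) in 0 (1.497%) and the NR4A element AAAGGTCA in 0 (1.24%), all searched on both strands. The core bound by NPAS4 with its partners, TCGTG, was in 4 of the 8 windows, those of Homer1, Ptgs2, Rgs2 and Inhba (14.2% of all windows), and the GC box GGGCGG in 4, those of Nr4a1, Nptx2, Ptgs2 and Rgs2 (30.5%). These 6 motifs are all that were searched, and their matches describe letters in 1 window per gene. The motifs were chosen after the sequences were seen, and the gene start given by RefSeq need not be the one used in these animals.

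Npas4 encodes a neuron-restricted transcription factor that is switched on by calcium entry and acts on inhibitory synapses. It was the least abundant early member, with 13 to 99 estimated counts per library. Its level was 2.06, 8.79, 1.205, 2.23 and 1.90 CPM in untreated animals and 9.44, 5.62, 5.79, 5.07 and 5.44 CPM in RG2833 animals. Untreated replicate 2 stood above 4 of the 5 treated animals, and the other 4 untreated animals lay below all of the treated ones. With that animal the log2 fold change was 0.95 ± 0.44 (SE) with a 95% interval of -0.01 to 1.91 (edgeR adjusted p = 0.209), and without it 1.76 (edgeR adjusted p = 0.0123). Without RG2833 replicate 1, the highest treated animal, it was 0.76 (edgeR adjusted p = 0.365). Of the 10 fits that left out 1 animal, Npas4 passed in 1 only. A change of the size seen for Arc lay inside the interval.

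Among the delayed genes, 0 of 5 were called by edgeR or by limma-voom and 1, Ptgs2, by DESeq2 (10.9% of all tested genes). In edgeR 2 of 5, Nptx2 and Ptgs2, had an unadjusted p under 0.05 (24.5% of all tested genes). Nptx2 encodes a secreted pentraxin that gathers AMPA receptors at excitatory synapses on interneurons. It was 48.4, 59.3, 80.3, 109 and 69.9 CPM in untreated animals and 98.5, 105, 99.3, 97.7 and 117 CPM in RG2833 animals. The treated animals were tightly grouped, and only untreated replicate 4 reached their range. The difference was 0.49 ± 0.17 log2 units (SE; edgeR adjusted p = 0.101), and without untreated replicate 4 it was 0.68 (edgeR adjusted p = 0.00608). Of the 10 fits that left out 1 animal, Nptx2 passed in that 1 only. Over the 10 fits its difference ran from 0.38 to 0.68 (edgeR adjusted p up to 0.218).

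Ptgs2 encodes the inducible cyclooxygenase COX-2, which makes the prostaglandin precursor and in the brain is found mainly in excitatory neurons. It was 18.1, 16.7, 10.5, 31.6 and 22.1 CPM in untreated animals and 31.8, 26.5, 39.4, 23.0 and 54.3 CPM in RG2833 animals. Untreated replicate 4 again lay inside the treated range, above RG2833 replicates 2 and 4. The difference was 0.82 ± 0.28 log2 units (SE; edgeR adjusted p = 0.0964), and without untreated replicate 4 it was 1.06 (edgeR adjusted p = 0.0204). Ptgs2 too passed in that 1 only of the 10 fits that left out 1 animal. Over the 10 fits its difference ran from 0.61 to 1.06 (edgeR adjusted p up to 0.233).

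Inhba encodes the activin beta A subunit, a secreted factor that protects neurons. It was near the lower limit of the data, with 11 to 38 estimated counts, where 3 counts, the floor used here, equal 0.268 to 0.343 CPM. It was 1.26, 1.10, 1.11, 2.14 and 1.48 CPM in untreated animals and 1.05, 2.76, 2.69, 1.24 and 3.98 CPM in RG2833 animals. Replicates 2, 3 and 5 of the treated group were above every untreated animal, and replicates 1 and 4 were not. The log2 fold change of 0.71 had a 95% interval from -0.08 to 1.501 (edgeR adjusted p = 0.248).

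Homer1 and Rgs2 were the members with the smallest differences. Homer1 encodes a scaffold that ties group I metabotropic glutamate receptors to the postsynaptic density. It was 63.1, 51.6, 77.6, 77.4 and 79.2 CPM in untreated animals and 66.9, 92.5, 73.5, 76.8 and 79.8 CPM in RG2833 animals. Untreated replicates 1 and 2 were below all treated animals and RG2833 replicates 2 and 5 above all untreated ones, with the other 6 animals in the overlap. The log2 fold change was 0.16 with a 95% interval from -0.11 to 0.42 (edgeR adjusted p = 0.453). A difference of the size of Arc's was outside that interval. The table gives 1 value per gene, so the short, activity-induced Homer1a transcript was not separated from the long constitutive forms.

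Rgs2 encodes a protein that shortens signalling through Gq-coupled receptors. It was 24.1, 17.1, 25.7, 20.01 and 26.1 CPM in untreated animals and 20.1, 22.3, 20.8, 24.8 and 23.0 CPM in RG2833 animals. The treated animals all lay inside the untreated range. The log2 fold change of -0.03 had a 95% interval from -0.29 to 0.24 (edgeR adjusted p = 0.919).

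**Figure D2:**
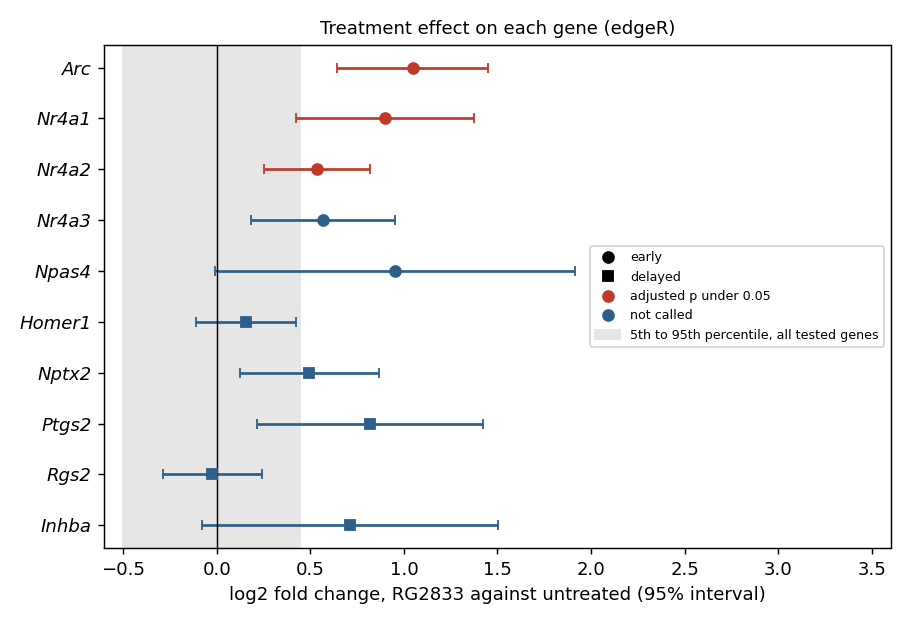
Log2 fold change of RG2833 against untreated animals (x axis) with its 95% interval for each gene (y axis), circles for early and squares for delayed genes, red where the edgeR adjusted p is under 0.05. The grey band holds the 5th to the 95th percentile of all tested genes (-0.50 to 0.44), and the values of all members but Homer1 and Rgs2 lie above it.

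Set side by side, log2 fold changes ran from 0.54 to 1.05 for the early genes (median 0.90) and from -0.03 to 0.82 for the delayed genes (median 0.49). The mean log2 CPM of the early genes was 4.88 ± 0.24 in untreated and 5.75 ± 0.19 in RG2833 animals (SD, n = 5 each), ranging from 4.64 to 5.17 and from 5.51 to 5.92. That of the delayed genes was 4.33 ± 0.27 and 4.74 ± 0.26, and the groups overlapped. Within each animal, the early mean minus the delayed mean was 0.52, 1.14, 0.57, 0.37 and 0.16 in untreated animals 1 to 5 and 1.42, 1.11, 0.76, 1.31 and 0.40 in RG2833 animals 1 to 5. Only RG2833 replicates 1 and 4 were above the highest untreated animal. The group means differed by 0.45, with SDs of 0.36 and 0.42, and the ranges of the groups overlapped (0.16 to 1.14 and 0.40 to 1.42). Taking medians over genes instead of means gave 0.14. No p-value is given, because the members were chosen with results known.

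The early mean was also set beside the excitatory neuron markers (7 genes, among them Slc17a7, Neurod6 and Nrgn), whose mean log2 CPM was 6.58 ± 0.29 in untreated and 6.97 ± 0.14 in RG2833 animals. Their summed level ran from 4118 to 5655 CPM in untreated and from 5630 to 6539 CPM in treated animals, and 0 of the 7 were called by edgeR (smallest adjusted p = 0.0550 for Neurod2), 4 by DESeq2 and 1 by limma-voom. For the marker counts here, the shares of all tested genes are 24.5% at an unadjusted p under 0.05 (11.8% higher), 10.9% called by DESeq2, 4.66% called by limma-voom and 7.27% without overlap (3.8% higher). At an unadjusted p under 0.05, 3 of the 7 were higher (Slc17a7, Neurod2 and Tbr1, of which Slc17a7 did not overlap) and Slc17a6 was lower (log2 fold change -0.64). Of 5 tested CA3 and CA2 markers, 0 were called by edgeR and 2 by DESeq2, and 3 were higher at an unadjusted p under 0.05 (summed level of the list 499.8 to 792 CPM in untreated and 754 to 990.4 CPM in treated animals). Of 7 vascular markers, 6 had values below 0, 4 of them at an unadjusted p under 0.05, with 0 called by edgeR and 1 by DESeq2, and the summed level was 223.4 to 328 CPM in untreated and 205 to 222.6 CPM in treated animals, without overlap. Of 6 microglial markers, Aif1 was called lower (log2 fold change -0.74, edgeR adjusted p = 0.0496), and the summed level was 314 to 449.8 CPM and 289 to 373 CPM. Of 5 oligodendrocyte precursor markers, all had values below 0, 1 (Pdgfra, log2 fold change -0.35) at an unadjusted p under 0.05, with 0 called by edgeR and 1 by DESeq2 (summed level 319 to 332 CPM and 254 to 328 CPM). Of 8 choroid plexus markers 3 were tested and all 3 had values below 0, with 0 called by edgeR and 1, Kcne2, by DESeq2 (log2 fold change -1.38, without overlap), and the summed level was 7.51 to 2503 CPM and 6.87 to 49.0 CPM. The part of the CA3 and CA2, vascular, microglial, oligodendrocyte precursor and choroid plexus markers in the members' differences was not tested. The CA1 list differed widely between animals, with 317 to 1252 CPM in untreated and 373 to 1400 CPM in treated animals. In whole tissue, fewer cells of a type and less RNA per cell cannot be told apart.

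**Figure D3:**
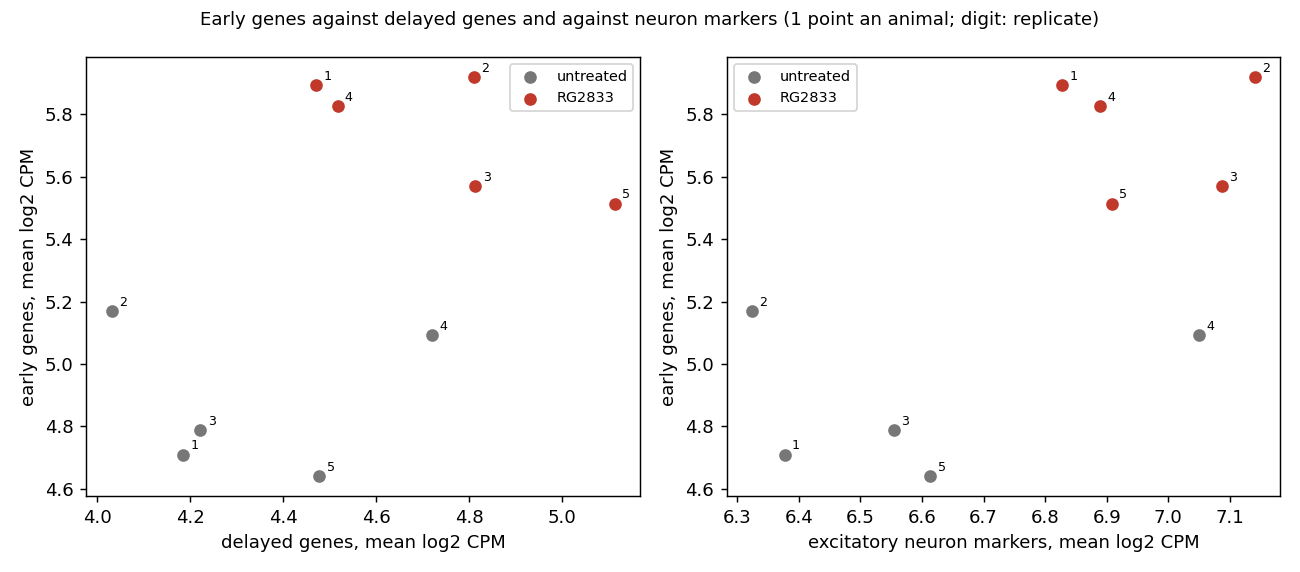
Mean log2 CPM of the 5 early genes (y axis) against that of the 5 delayed genes (left) and of the excitatory neuron markers (right), 1 point per animal, numbered by replicate. Every RG2833 animal lies above every untreated animal on the y axis (5.51 or more against 5.17 or less), while the groups overlap on both x axes.

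Untreated replicate 4 was described separately after its values were seen. It had the highest excitatory marker mean of the untreated group (7.05, inside the treated range of 6.83 to 7.14). In this animal 4 of the 5 early genes were below all RG2833 animals, Arc at 117, Nr4a2 at 43.0, Nr4a3 at 46.6 and Npas4 at 2.23 CPM, and Nr4a1 was inside their range. Of the 5 delayed genes, 4 (Homer1, Nptx2, Ptgs2 and Inhba) were inside the treated range and Rgs2, at 20.01 CPM, was just below its lower end of 20.13 CPM. This is 1 animal.

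With the excitatory marker mean as a covariate, 5 of all genes and 0 members were called (edgeR; 3 members, all early, at an unadjusted p under 0.05). The log2 fold change was 0.80 ± 0.23 (SE) for Arc, 1.82 ± 0.58 for Npas4, 0.54 ± 0.19 for Nr4a2, 0.51 ± 0.26 for Nr4a1 and 0.48 ± 0.25 for Nr4a3. The delayed genes lay between -0.10 and 0.47 (median 0.11). When the ribosomal RNA share entered the fit, 2 of all genes and 0 members were called (4 members, all early, at an unadjusted p under 0.05). Arc stayed at 1.07 but with an SE of 0.37, the early genes lay between 0.62 and 2.4995, and the delayed genes between -0.25 and 0.29. With 1 surrogate variable 5 of all genes and 0 members were called (4 early members at an unadjusted p under 0.05), and the early genes lay between 0.63 and 1.07 and the delayed genes between 0.11 and 0.25. For these covariate fits no share of all tested genes at an unadjusted p under 0.05 is given. The counts of members at that threshold therefore have no background to be read against. The part of neuron content or ribosomal RNA in the differences beyond these fits was not tested.

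**Figure D4:**
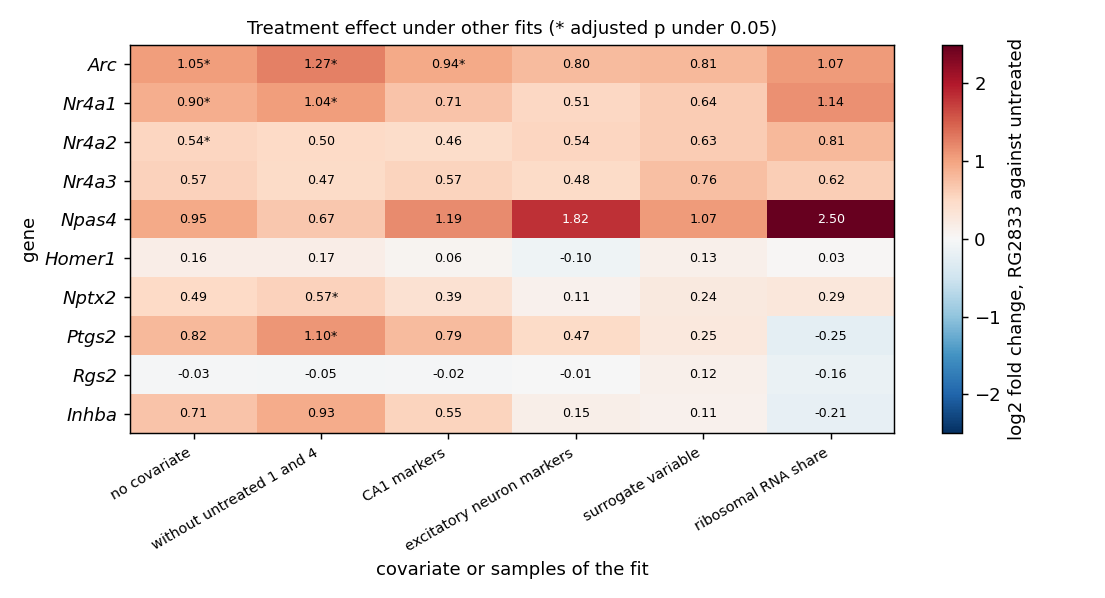
Log2 fold change of each gene (y axis, colour and printed value) under 6 fits that differ in covariate or animals (x axis), with an asterisk where the edgeR adjusted p is under 0.05. The 5 early genes stay above 0 in every column shown, whereas Ptgs2 and Inhba are below 0 in the column for the ribosomal RNA share, Homer1 in that for the excitatory neuron markers and Rgs2 in all columns but that for the surrogate variable.

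Among animals of the same group, Arc and Nr4a1 varied most alike. After subtraction of the group mean and scaling to unit spread, the root mean square difference between their log2 CPM over the 10 animals was 0.52, the smallest of all pairs of members, and Npas4 and Rgs2 were the least alike (1.93). For both Arc and Nr4a1, untreated replicate 4 was the highest of its group and replicate 5 the lowest (Arc deviations of 0.59 and -0.72, Nr4a1 deviations of 0.61 and -0.58 on the log2 scale). Nr4a3 did not share this order: there untreated replicate 5 was highest (0.47). Among 10331 genes, those most like Arc by the same measure were Ubald1 (0.26), Ubl7 (0.32), Gsto1 (0.37), Klk8 (0.37) and Aph1b (0.40). Those most like Homer1 were Zfp260 (0.33), St8sia1 (0.34), Tmco3 (0.34), Runx1t1 (0.35) and Snd1 (0.37). These 10 genes were picked from all genes for their likeness, so the values describe these animals only.

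Other genes of the activity response were taken from lists written with general knowledge. Of 22 other rapidly induced genes, all tested, 6 were called higher and 0 lower by edgeR (2.41% and 2.67% of all tested genes), 9 were called by DESeq2 and 5 by limma-voom (10.9% and 4.66% of all tested genes), and 10 had an unadjusted p under 0.05 (24.5%). The median log2 fold change of the list was 0.26. All 6 calls were lost with the ribosomal RNA share, the excitatory neuron markers or a surrogate variable in the fit, where 0 of all tested genes were called higher. The 6 were Fos (1.45), Egr1 (1.18), Egr4 (1.02), Egr3 (0.95), Fosb (0.82) and Junb (0.57), all transcription factors, with edgeR adjusted p from 0.00724 to 0.0381. The list was not uniform. Jun (-0.11), Sik1 (-0.15) and Maff (-0.17) had values below 0, and Dusp1, Ier2, Btg2 and Gadd45b had values between 0.11 and 0.18, none of which passed. Of the 20 other delayed genes, 19 were tested and 0 were called (edgeR; 5 at an unadjusted p under 0.05, 1 by DESeq2, 0 by limma-voom), beside the same shares of all tested genes, with a median of 0.05. Bdnf (brain-derived neurotrophic factor) had a log2 fold change of 0.33 (edgeR adjusted p = 0.115), and the secretory granule genes Vgf and Scg2 had 0.05 and -0.10 (edgeR adjusted p = 0.788 and 0.578).

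Genes related to the members were counted in the same way, as binding partners, receptors, enzymes or genes of the same family and, for Npas4, mostly genes known to be regulated by it. These are called partners here, and some stand in more than 1 list. Over 75 tested partner genes, 9 were higher and 1 lower, against 2.41% and 2.67% of all tested genes, with a median log2 fold change of 0.18. The 9 upward calls too were lost when the ribosomal RNA share, the excitatory neuron markers or a surrogate variable entered the fit. Among 11 partners of Arc, Cacng2 (stargazin, an AMPA receptor auxiliary subunit) went up without overlap, from 34.9 ± 5.57 to 55.9 ± 5.33 CPM (SD, n = 5; edgeR adjusted p = 0.00932), or by 0.68 log2 units, and Camk2a (the calcium/calmodulin kinase of excitatory synapses) rose by 0.67 (edgeR adjusted p = 0.0459). Among 10 partners of the NR4A receptors, 2 were called higher, among them the CREB coactivator Crtc1, which rose by 0.60 (edgeR adjusted p = 0.0241).

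Of 9 tested Homer1 partners, its relative Homer3 went up by 0.74 log2 units, from 75.8 ± 20.8 to 126 ± 14.0 CPM (SD, n = 5; edgeR adjusted p = 0.0296), and the scaffold gene Shank3 rose by 0.39 (edgeR adjusted p = 0.0345), both without overlap. Homer2 had a value of 0.00. Among 7 partners of Nptx2, the related pentraxin Nptx1 went up by 0.54 log2 units, from 1105 ± 180 to 1612 ± 234 CPM (SD, n = 5; edgeR adjusted p = 0.0386), and none of Gria1 to Gria4 or Nptxr passed. Among 10 genes grouped with Rgs2, Chrm1 (the Gq-coupled M1 muscarinic receptor) rose by 0.60 and Rgs8 by 0.51, whereas Rgs4, another inhibitor of Gq signalling, fell by 1.18 on the log2 scale (edgeR adjusted p = 0.0357, 0.0260 and 0.0345). Rgs4 went from 66.1 ± 26.0 to 29.1 ± 5.27 CPM (SD, n = 5).

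For the partners of Npas4, Ptgs2 and Inhba no gene was called by edgeR. The counts at an unadjusted p under 0.05 that follow stand beside 24.5% of all tested genes. Of 10 Npas4 partners, 4 had an unadjusted p under 0.05, among them Nptx2, which is itself one of the 10 members, and 1 was called by DESeq2, and the lowest p was that of the dimerization partner Arnt2 (log2 fold change -0.62, edgeR adjusted p = 0.0946). Of 9 tested prostaglandin genes, 0 had a value above 0, 2 had an unadjusted p under 0.05 and 0 were called by DESeq2, with the lowest p for Ptgis, prostacyclin synthase (-1.003, edgeR adjusted p = 0.168). Of 11 tested activin genes, 2 had an unadjusted p under 0.05 and 0 were called by DESeq2, with the lowest p for the receptor gene Acvr1b (0.31, edgeR adjusted p = 0.195).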

How the data were processed

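The members and gene lists were chosen with earlier results of these data known. Per the submitters' processing notes, the tools included bcl2fastq 2.17, Bowtie2 2.1.0, RSEM 1.2.15 and edgeR, and the build was rn6; the annotation and the use of strand in counting are not given in the sources used here. The authors deposited estimated counts (RSEM expected counts) per gene symbol and a TMM-scaled signal (CPM). Libraries came from a stranded mRNA kit, per the labels' protocols.

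Expected counts were rounded. Genes were filtered with edgeR's filterByExpr and tested with the edgeR quasi-likelihood test (edgeR 4.0.16, R 4.3.3), TMM scaling, all 10 animals and no covariate, with Benjamini-Hochberg adjustment over 11791 genes. A prior count of 2 entered log2 CPM. For the 10 members, CPM differed from the deposited signal by at most 0.70%. Alternatives were other scalings, filters, DESeq2 1.42.0, limma 3.58.1, a replicate block, sva 3.50.0, covariates and leaving out each animal; the CA1 covariate and the removal of 2 libraries were added after seeing the data. On simulated counts, 178 of 200 genes changed by 1 log2 unit were recovered among 11720, with 7 false calls. Named genes were the 10 members; up to 10 called genes of the other activity lists; per partner list up to 3 called genes, or the one with the lowest p; and the 5 genes most like Arc and Homer1. Other genes were named after their values were seen. One gene that the rule names is not reported here. Pairs of libraries within a group differed by more than sampling noise (chi-square per degree of freedom 4.60 or more). This check cannot tell repeat libraries of the same animal from libraries of different animals. Counting each as 1 animal rests on the labels. The intervals come from the edgeR fit and so rest on the spread between animals. Neither they nor the floor of 3 counts separately models the error of assigning reads to genes. The reads carry no stated molecular identifiers. Both groups use replicate numbers 1 to 5, and nothing in the labels ties equal numbers together, so no block was used in the test.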

Additional observations from a re-analysis of the deposited data

Results flagged for a closer look

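Among 20 groups of 5 values (each gene in each treatment group), 2 held an animal whose gap to its nearest neighbour, divided by the range, was above 0.71, the 95% critical value of Dixon's test at n = 5. About 1 in 20 such groups would do so by chance. Both were for Npas4. In the untreated group, replicate 2 had 8.79 CPM against 1.205 to 2.23 CPM in the others (gap over range 0.864). In the RG2833 group, replicate 1 had 9.44 CPM against 5.07 to 5.79 CPM (0.836). Of the other 9 genes, untreated replicate 2 was the highest animal of its group for Nr4a2 only, and RG2833 replicate 1 was the highest of its group for none of them. The cause was not tested.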

How the results depend on the processing

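Arc, Nr4a1 and Nr4a2 were the members called, 3 of 10, without a low-count filter, with scaling by DESeq2 size factors or by library totals, and under limma-voom, the limma trend fits of the authors' signal (pseudocounts 1 and 0.1) and a fit with Bc1 and ribosomal RNA loci taken out. In those fits 3.21 to 5.16% of all tested genes were called in either direction. A mean count of at least 50 removed Npas4 and Inhba and called the same 3 of the 8 members left, beside 6.28% of all tested genes. DESeq2's Wald test called 5 members (Nr4a3 and Ptgs2 added) and 1286 genes, and an adjusted p under 0.1 gave 5 members and 1466 genes, against 599 genes in the main test. Covariates left 2 genes (ribosomal RNA share), 5 (excitatory neuron markers), 5 (1 surrogate variable) and 64 (CA1 markers), with 0, 0, 0 and 1 members, the last being Arc. Without untreated replicates 1 and 4, 1379 genes and 4 members (Arc, Nr4a1, Nptx2, Ptgs2) were called, and Nr4a2 was not. The 10 fits that left out one animal called 98 to 1556 genes and 1 to 5 members, the most without untreated replicate 4 (Nptx2 and Ptgs2 added) and the fewest genes without RG2833 replicate 5. Only Arc was called without untreated replicate 1 or 3 or RG2833 replicate 1, 2, 4 or 5. The correlation of same-numbered animals' deviations ran from -0.32 to 0.15 over the 5 pairs (0.15 for replicate 5, mean -0.07), so the numbers were not taken as pairs, and the replicate block called 180 genes and 2 members, without Nr4a2. Direction changed for Ptgs2 (-0.25) and Inhba (-0.21) with the ribosomal RNA share, for Homer1 (-0.10) with the excitatory neuron markers and for Rgs2 with the surrogate variable (0.12) and in 3 fits without 1 animal (0.020, 0.032 and 0.0089, with -0.11 the lowest of the 10). None of these values passed, and the cause was not tested. The early minus delayed difference of 0.45 ran from 0.14 (median over genes) to 0.62 (Nr4a2 and Nr4a3 counted as delayed), and was 0.39 without Npas4 and Inhba (mean count of at least 50). The planned comparison with members under the original filter kept in or left out was not run, since all 10 passed it. Npas4 (13 to 99) and Inhba (11 to 38) had the fewest estimated counts per library.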

Other observations

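Genes of the activity and partner lists with large differences that fell outside the naming rule were chosen after their values were seen. Dusp5, a phosphatase that acts on ERK, averaged 16.1 ± 8.16 CPM without and 29.3 ± 2.38 CPM with RG2833 (SD, n = 5), and its groups did not overlap, but its log2 fold change of 0.86 did not pass (edgeR adjusted p = 0.110). Rasgrp1, a calcium-responsive activator of Ras, was at 202 and 364 CPM (log2 fold change 0.85, edgeR adjusted p = 0.0876). Tac1, the substance P precursor gene, had the lowest value of the delayed activity list, at 7.09 and 2.52 CPM (log2 fold change -1.47, edgeR adjusted p = 0.0617). Rxrg, a retinoid X receptor gene, was at 25.8 and 9.84 CPM (log2 fold change -1.39, edgeR adjusted p = 0.126).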
